A study of Mus musculus with 4 samples.

Results

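The 9 genes described here are core regulators of the mitochondrial pathway of apoptosis: Bcl2, Bcl2l1 and Mcl1, which keep cells alive, the effectors Bax and Bak1, the BH3-only genes Bid, Bcl2l11 and Bbc3, and the initiator caspase Casp9. They were taken by gene symbol from the deposited gene tables, 9 of the 21827 genes that remained once small RNAs were left out, by a rule that reads symbols and no measured value. RNA of sorted cells from the postnatal mouse retina was sequenced in 4 libraries, 1 each of EGFP-positive cells (pHes1_EPCs) and EGFP-negative cells (pHes1_ENCs) at postnatal day 1 (P1) and at postnatal day 4 (P4). All 4 came from retinas of mice carrying a transgene in which the Hes1 promoter drives a destabilized EGFP, and the labels give the strain as FVB/N and no particular treatment. Retinas were dissociated with trypsin, stained with propidium iodide, a dye that enters dead cells, and separated by EGFP on a cell sorter. The number of animals behind a library is not given in the sources used here. Hes1 is expressed in Müller glia, the main glial cell of the retina, and also in retinal progenitors, so that at these ages the promoter marks both. The comparison of pHes1_EPCs with pHes1_ENCs was made to find the genes that set Müller glia apart from other retinal cells. With 1 library in each group there is no replicate error and no test between groups, and every difference below describes these libraries.

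In the mitochondrial pathway, BAX and BAK1 open the outer membrane of mitochondria, and the cytochrome c that escapes brings caspase 9 together with APAF1 and starts the caspase cascade. BCL2, BCL-XL (the product of Bcl2l1) and MCL1 hold BAX and BAK1 back, and BH3-only proteins such as BIM (Bcl2l11), PUMA (Bbc3) and BID release that hold or activate the effectors directly. In the mouse retina, cell death of this kind removes many neurons in the first weeks after birth, and mice without Bax keep neurons that would otherwise die.

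The stretches just upstream of 4 members are shown because these genes carry the differences described below: Bcl2, Bak1 and Bbc3 were past 2-fold between the fractions at both ages, and Bid changed direction between the ages. Each stretch holds the 250 bases before the start of the gene as the deposited tables place it, read from the mouse genome NCBI37 (mm9) on the gene's strand, 5′ to 3′. Capitals mark matches, on either strand, to the GC box GGGCGG or the N-box CACNAG, the kind of site that HES1 binds. Bcl2 lies on the minus strand at chr1:108434756-108610867 and its stretch is chr1:108610868-108611117, Bak1 lies on the minus strand at chr17:27156757-27165571 with chr17:27165572-27165821, Bbc3 lies on the plus strand at chr7:16894932-16903683 with chr7:16894682-16894931, and Bid lies on the minus strand at chr6:120843137-120866838 with chr6:120866839-120867088.
Bcl2: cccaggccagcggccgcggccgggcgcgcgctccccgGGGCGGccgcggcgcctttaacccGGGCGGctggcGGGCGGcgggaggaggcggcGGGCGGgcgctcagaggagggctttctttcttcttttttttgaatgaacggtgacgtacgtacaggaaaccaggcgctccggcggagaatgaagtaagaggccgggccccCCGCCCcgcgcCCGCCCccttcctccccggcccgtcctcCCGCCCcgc
Bak1: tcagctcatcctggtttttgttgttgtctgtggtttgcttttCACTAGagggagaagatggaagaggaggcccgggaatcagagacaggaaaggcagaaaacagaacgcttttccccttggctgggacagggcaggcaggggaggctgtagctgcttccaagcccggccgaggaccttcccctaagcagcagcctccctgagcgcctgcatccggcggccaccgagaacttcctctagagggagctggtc
Bbc3: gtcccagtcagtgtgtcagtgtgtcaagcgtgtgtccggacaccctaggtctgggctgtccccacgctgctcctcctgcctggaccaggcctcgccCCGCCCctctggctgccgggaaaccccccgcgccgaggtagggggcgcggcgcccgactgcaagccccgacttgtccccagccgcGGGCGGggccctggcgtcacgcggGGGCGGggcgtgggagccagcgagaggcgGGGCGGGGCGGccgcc
Bid: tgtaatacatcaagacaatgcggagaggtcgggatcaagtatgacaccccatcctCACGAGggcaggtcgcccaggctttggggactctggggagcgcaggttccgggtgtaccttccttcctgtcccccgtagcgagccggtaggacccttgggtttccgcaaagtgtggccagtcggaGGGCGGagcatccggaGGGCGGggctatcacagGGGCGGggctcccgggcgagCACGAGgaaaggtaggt
The Bcl2 stretch held 7 GC boxes and the Bbc3 stretch 5, the last pair of which share a base. The Bid stretch held 3 GC boxes and 2 N-boxes, and the Bak1 stretch held 1 N-box and no GC box, and among the members not shown Bcl2l11 had 1 N-box. A GC box was present in 45.7% and an N-box in 35.1% of the 20856 stretches of this length before genes in the tables. Bcl2 and Bbc3, which differed in opposite directions between the fractions, had the richest stretches in G and C of the 9 members, at 74.8% and 76.4%, against a median of 56.4% over all genes. Of the other members, Casp9 held 4 GC boxes, Bcl2l11 held 3, Bax held 2, Mcl1 held 1 and Bcl2l1 held none. The E-box CACGTG (6.91% of all stretches), the RBPJ site TGGGAA (20.5%) and the CRX site TAATCC (6.14%) were each found once among the members, all 3 before Bax. The CCAAT box (35.5%) was found before Bcl2l11 alone, and the E2F sites TTTCGCGC, TTTGGCGC, TTTCCCGC and TTTGCCGC (2.46% together) were not found in any of the 9. These matches describe letters in a window and say nothing about binding.

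The tables give each gene an FPKM, its reads scaled to the length of the transcript and the size of the library, with a 95% interval from Cufflinks that covers counting error only. Hes1, whose promoter drives the sorted EGFP, had an FPKM of 16.6 in pHes1_ENC and 105 in pHes1_EPC at P1, against 3.59 and 93.5 at P4. The summed FPKM of 6 Müller glia markers was 214 in P1 pHes1_ENC and 700 in P1 pHes1_EPC, and 103 in P4 pHes1_ENC and 1037 in P4 pHes1_EPC. That of 6 progenitor markers was 671 and 2359 at P1, then 147 and 1374 at P4. Both sums were higher in the EGFP-positive fraction, which does not show whether the same cells carried both sets. Ccnd1 alone gave 1406 of the progenitor sum in P1 pHes1_EPC. Pax6 went the other way at P1, at 246 in pHes1_ENC and 127 in pHes1_EPC. Of the Müller glia markers, Aqp4 was at most 0.395. The 6 rod markers summed to 595 and 32.7 at P1, then 2822 and 521 at P4. The 4 amacrine cell markers with values summed to 77.2 and 6.93, then 71.7 and 12.7, and these 2 lists were higher in pHes1_ENCs. Sums of the ganglion cell (5.69 to 20.2) and microglia (2.19 to 9.94) markers were low in all 4 libraries. The endothelial list summed to between 14.8 and 212, of which Kdr, which retinal progenitors express too, was the largest part in each library, while Pecam1 was at most 0.142. Cldn5 of the same list was 16.3 in pHes1_ENC and 3.49 in pHes1_EPC at P1, then 2.59 and 4.06 at P4. In such bulk samples, fewer cells of a type and less RNA per cell cannot be told apart.

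Differences were taken as log2(FPKM + 1) in one library minus that in the other, so that low genes show smaller differences than their ratios, and a gene was counted as past 2-fold when the difference was above 1 or below -1. All 9 members reached an FPKM of 1 in some library and were set beside the 12940 genes that did so. At P1, 2 of the 9 members, Bcl2 and Bak1, were past 2-fold higher in pHes1_EPCs, where 10.3% of all genes were, and 1 member, Bbc3, was past 2-fold lower, where 11.5% were. At P4, 3 members, Bcl2, Bak1 and Bid, were past 2-fold higher against 16.6% of all genes, and 2 members, Bcl2l1 and Bbc3, were past 2-fold lower against 9.15%. The Cufflinks intervals of the 2 fractions lay apart for 8 of 9 members at P1, against 67.7% of all genes, and for 8 of 9 at P4, against 73.4%. The median size of the difference, whatever its sign, was 0.83 over the members and 0.43 over all genes at P1, and 1.05 and 0.54 at P4. The signed median was -0.39 over the members and 0.02 over all genes at P1, and 0.36 and 0.15 at P4. Among both the prosurvival and the BH3-only genes, 1 member was higher in pHes1_EPCs and another in pHes1_ENCs at both ages.

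**Figure D1:**
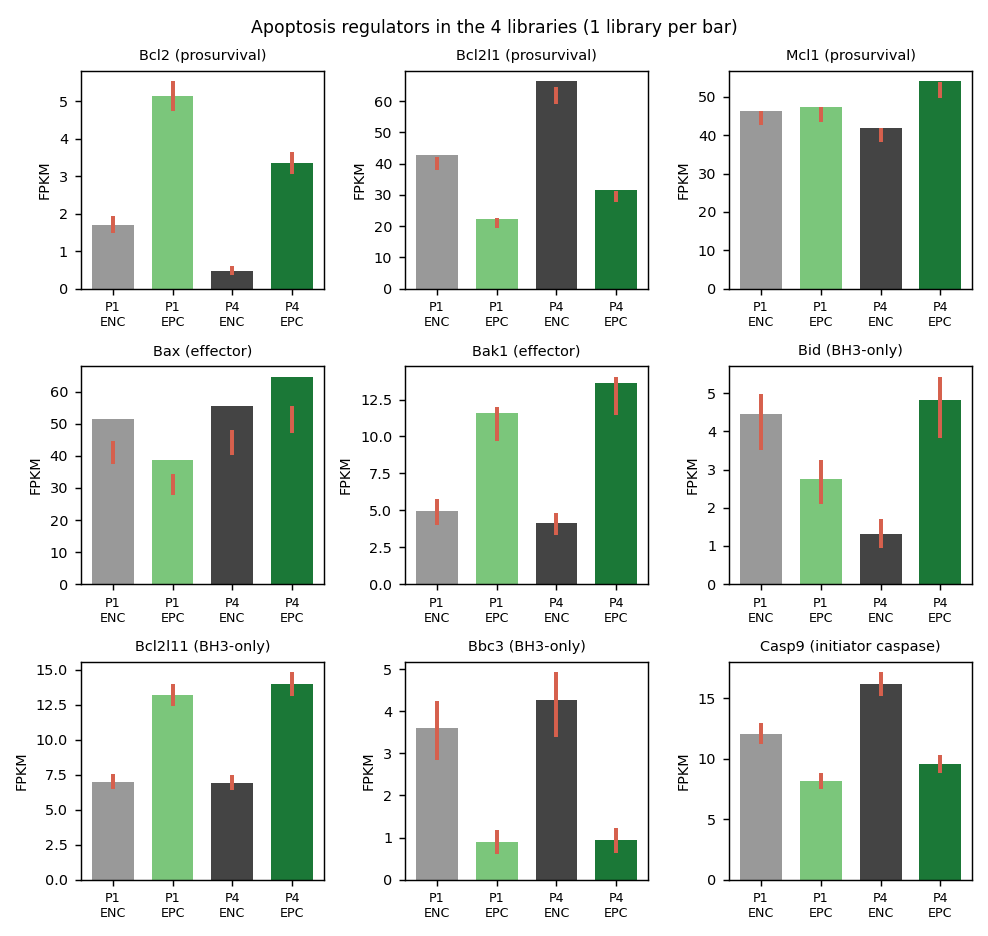
FPKM of the 9 members in each of the 4 libraries, 1 library per bar, with the Cufflinks 95% interval (counting error only) as a red line and a separate axis from 0 in each panel. Bcl2, Bak1 and Bcl2l11 stand higher in the EGFP-positive bars at both ages, Bcl2l1, Bbc3 and Casp9 in the EGFP-negative bars, and Bid switches from one to the other, while the bars of Bax and Mcl1 end above their own intervals.

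Among the prosurvival genes, Bcl2 and Bcl2l1 differed in opposite directions. Bcl2, the founding member of the family, had an FPKM of 1.71 in pHes1_ENC and 5.13 in pHes1_EPC at P1, then 0.483 and 3.35 at P4. Both EGFP-positive libraries were above both EGFP-negative ones, and all 4 intervals were apart from each other. The difference of log2(FPKM + 1) was 1.18 at P1 and 1.55 at P4. The ratio of EPC to ENC was 3.003 at P1, with a range of 2.46 to 3.71 from the ends of the Cufflinks intervals, and 6.93 at P4 with a range of 5.13 to 9.71. Of the 7191 exon bases of Bcl2, 558 are shared with a noncoding transcript on the opposite strand, D630008O14Rik, and the library protocol does not state that it kept strand.

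Bcl2l1, which encodes BCL-XL, had an FPKM of 42.7 in pHes1_ENC and 22.2 in pHes1_EPC at P1, against 66.5 and 31.6 at P4. Both EGFP-negative libraries were above both EGFP-positive ones. The difference was -0.91 at P1, short of 2-fold, and -1.05 at P4, past it, with EPC to ENC ratios of 0.520 (range 0.462 to 0.596) and 0.475 (range 0.431 to 0.531). The P1 and P4 ranges overlapped, so as deposited Bcl2l1 lay on either side of the 2-fold line without a clear change between the ages. This placing depended on the scaling. The P1 difference was -1.02 with the same total and after quantile normalization. The P4 difference fell below its range (-1.185 to -0.893) to -1.35 with the same total, -1.25 with median-of-ratios scaling and -1.22 after quantile normalization. BCL-XL is also known for its role in red blood cell precursors, and 6 erythroid markers summed to an FPKM of 185 in P1 pHes1_ENC and 502 in P4 pHes1_ENC but 0.615 in P1 pHes1_EPC and 6.82 in P4 pHes1_EPC. Of these, 3 at P1 and 4 at P4 were past 2-fold lower in pHes1_EPCs, and Slc4a1 was listed at 0 in both EGFP-positive libraries. Their part in the Bcl2l1 values was not tested.

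Mcl1, which encodes a short-lived prosurvival protein, was the most even of the 9. Its FPKM was 46.5 in pHes1_ENC and 47.4 in pHes1_EPC at P1, then 41.9 and 54.2 at P4. The P1 intervals overlapped, with a ratio of 1.02 (range 0.942 to 1.11), while at P4 pHes1_EPCs were 1.29 times pHes1_ENCs (range 1.19 to 1.40). That P4 difference was 0.36 on the log2(FPKM + 1) scale (range 0.247 to 0.479). It fell below this range under each rescaling, to 0.08 with the same total, 0.165 with median-of-ratios scaling and 0.159 after quantile normalization. The P1 difference of 0.03 turned to -0.06 when the libraries were rescaled to the same total and to -0.07 after quantile normalization, so it carried no direction.

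The effectors also parted. Bax had an FPKM of 51.4 in pHes1_ENC and 38.8 in pHes1_EPC at P1, against 55.5 and 64.7 at P4. The highest and the lowest of these were the EGFP-positive libraries of P4 and P1. The EPC to ENC ratio was 0.756 at P1 (range 0.626 to 0.919), and 1.17 at P4, where the intervals overlapped (range 0.980 to 1.38). The P4 difference of 0.22 turned to -0.07 with the same total and to -0.02 after quantile normalization. The FPKM of Bax and Mcl1 lay above their own Cufflinks intervals in all 4 libraries, and that of Bcl2l1 in 3, 11 of the 36 member values in all, and an FPKM outside its own interval was listed on 9.06% to 10.4% of the lines of a library.

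Bak1, the other effector, was lower than Bax in every library and differed more between the fractions. Its FPKM was 4.93 in pHes1_ENC and 11.6 in pHes1_EPC at P1, then 4.17 and 13.6 at P4. Both EGFP-positive libraries were above both EGFP-negative ones, and the 2 libraries of each fraction had overlapping intervals. The difference was 1.08 at P1 and 1.501 at P4, with ratios of 2.34 (range 1.67 to 3.02) and 3.27 (range 2.39 to 4.27). The P1 range reaches below 2-fold. Of the exon bases of Bak1, 14.8% are shared with Ggnbp1 on the opposite strand, whose FPKM in the same order of libraries was 3.11, 3.60, 2.35 and 6.73, and the share of its reads in the Bak1 values was not tested. Bax therefore exceeded Bak1 by 10.4 times in P1 pHes1_ENC and 13.3 times in P4 pHes1_ENC, but by 3.36 and 4.75 times in P1 and P4 pHes1_EPC.

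The 3 BH3-only genes gave 3 different patterns. Bcl2l11, whose product BIM binds all the prosurvival proteins, had an FPKM of 6.996 in pHes1_ENC and 13.2 in pHes1_EPC at P1, against 6.92 and 14.0 at P4. The level was nearly the same at both ages within a fraction, and the intervals of the fractions were apart. The ratio was 1.88 at P1 (range 1.65 to 2.15) and 2.02 at P4 (range 1.76 to 2.32), and the differences on the log2(FPKM + 1) scale, 0.83 and 0.92, were just within 2-fold. With a pseudocount of 0.1 the P4 difference was 1.0045, and without one 1.0149, so that 4 members were past 2-fold higher at P4. It fell below its range (0.742 to 1.10) to 0.699 with the same total, 0.735 with median-of-ratios scaling and 0.722 after quantile normalization.

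Bbc3, which encodes PUMA and is a known target of p53, ran the other way. Its FPKM was 3.59 in pHes1_ENC and 0.904 in pHes1_EPC at P1, then 4.27 and 0.933 at P4. Both EGFP-positive libraries were below both EGFP-negative ones, and again the ages overlapped within each fraction. The difference was -1.27 at P1 and -1.45 at P4. The EPC to ENC ratio was 0.252 at P1 (range 0.146 to 0.415) and 0.218 at P4 (range 0.126 to 0.363), that is 3.97 and 4.58 times lower. Bbc3 had the widest interval among the members, with a half-width of 32.4% of the FPKM in P4 pHes1_EPC, against 3.74% for Mcl1 in the same library.

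Bid, whose product links death receptors to mitochondria once caspase 8 has cut it, was the member whose direction changed between the ages beyond its intervals. Its FPKM was 4.46 in pHes1_ENC and 2.75 in pHes1_EPC at P1, against 1.33 and 4.83 at P4. At P1 the EGFP-negative library was higher and at P4 the EGFP-positive one, with intervals apart at both ages. The difference was -0.54 at P1, with a ratio of 0.618 (range 0.421 to 0.922), and 1.33 at P4, with a ratio of 3.65 (range 2.25 to 5.82). Both signs were the same under every scaling tried. Of the exon bases of Bid, 17.7% are shared with Bcl2l13 on the opposite strand, whose FPKM lay between 20.3 and 23.3 in the 4 libraries, well above that of Bid, and whether its reads entered the Bid values was not tested.

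Casp9, the caspase that the apoptosome activates, had an FPKM of 12.1 in pHes1_ENC and 8.11 in pHes1_EPC at P1, then 16.2 and 9.55 at P4. The EGFP-negative library was higher at each age and the intervals were apart. The difference was -0.52 at P1 and -0.70 at P4, with ratios of 0.672 (range 0.577 to 0.782) and 0.591 (range 0.514 to 0.679), within 2-fold at both ages. With libraries rescaled to the same total, the P4 difference was -1.02, past 2-fold. Its exons share 1.81% of their bases with Cela2a, which was at or near 0 throughout.

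**Figure D2:**
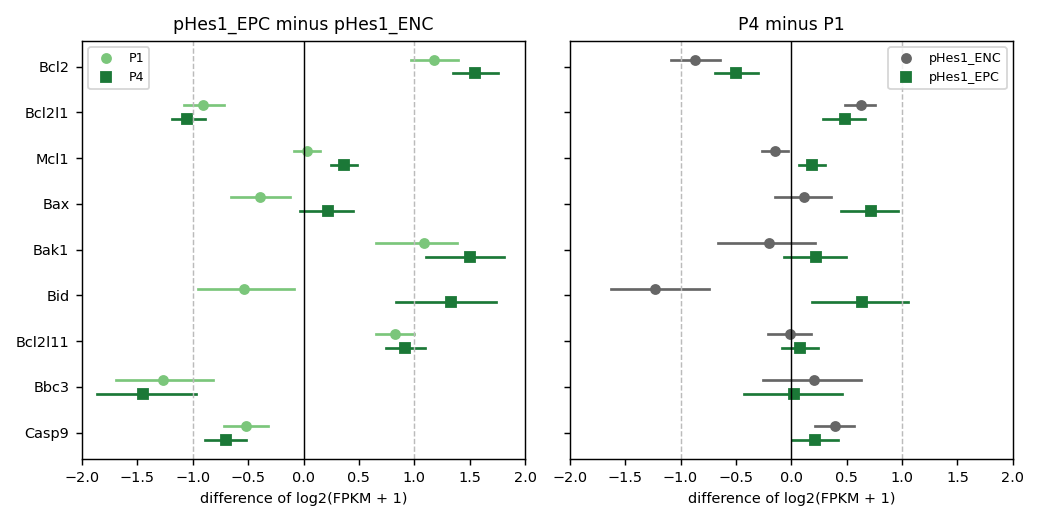
Difference of log2(FPKM + 1) for each member between the fractions at P1 and P4 (left) and between the ages in each fraction (right), with lines for the range given by the ends of the Cufflinks 95% intervals and dashed lines at 2-fold. On the left Bcl2, Bak1 and Bcl2l11 lie to the right of 0 and Bcl2l1, Bbc3 and Casp9 to the left at both ages, with Bid at -0.54 and 1.33, while on the right only Bid in pHes1_ENCs, at -1.23, is past 2-fold.

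Since FPKM is scaled to transcript length, the members can be added within a role. The prosurvival genes summed to an FPKM of 90.9 in pHes1_ENC and 74.8 in pHes1_EPC at P1, against 108.8 and 89.1 at P4. The sum was higher in pHes1_ENCs at both ages, and its makeup differed. Bcl2l1 made up 47.0% and 61.1% of it in P1 and P4 pHes1_ENC but 29.7% and 35.5% in P1 and P4 pHes1_EPC, where Mcl1 held 63.4% and 60.8%. Bcl2, for all its fold difference, was 6.86% of the sum at most, in P1 pHes1_EPC, and 0.444% at least, in P4 pHes1_ENC.

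The effector sum was 56.3 in pHes1_ENC and 50.4 in pHes1_EPC at P1, then 59.7 and 78.4 at P4. Bax gave 91.2% and 93.0% of it in P1 and P4 pHes1_ENC and 77.1% and 82.6% in P1 and P4 pHes1_EPC. The ratio of effector to prosurvival FPKM was 0.619 (range 0.574 to 0.665) in P1 pHes1_ENC and 0.674 (range 0.623 to 0.724) in P1 pHes1_EPC, whose ranges overlap. It was 0.548 (range 0.508 to 0.589) in P4 pHes1_ENC and 0.880 (range 0.824 to 0.935) in P4 pHes1_EPC, the highest of the 4 libraries and clear of the others. The FPKM of Bax and Mcl1 lay above their own intervals, and interval midpoints gave a lower ratio in each library, below the range given here. These ratios set transcripts side by side and are no measure of protein or of cell death.

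The BH3-only genes summed to an FPKM of 15.0 in pHes1_ENC and 16.8 in pHes1_EPC at P1, against 12.5 and 19.8 at P4, well under either other role. Bcl2l11 was the largest part everywhere, 46.5% and 55.3% in P1 and P4 pHes1_ENC and 78.3% and 70.8% in P1 and P4 pHes1_EPC. Bbc3 made up 23.9% and 34.1% in P1 and P4 pHes1_ENC but 5.37% and 4.73% in P1 and P4 pHes1_EPC. Bid made up 29.6% and 10.6% in P1 and P4 pHes1_ENC and 16.4% and 24.5% in P1 and P4 pHes1_EPC. After Bcl2l11, the next largest part was thus Bid in P1 pHes1_ENC and both pHes1_EPC libraries, and Bbc3 in P4 pHes1_ENC.

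**Figure D3:**
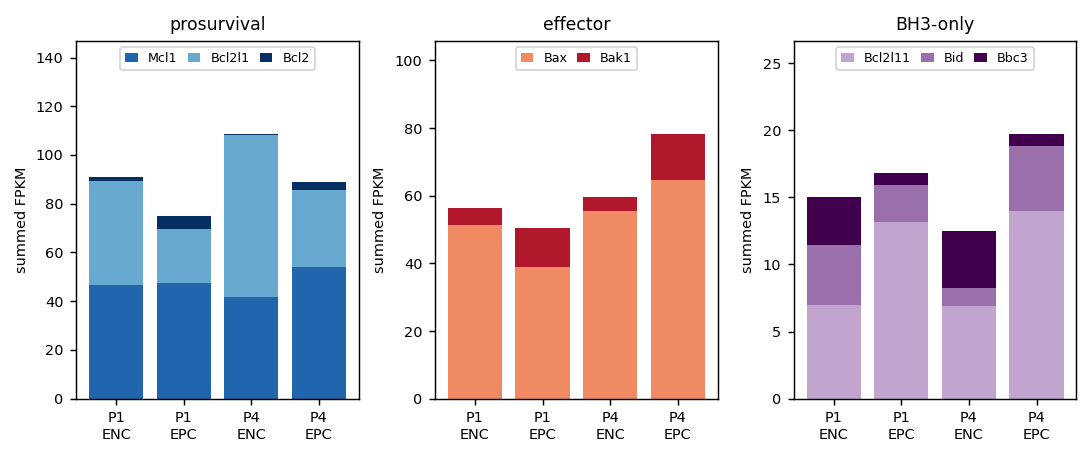
FPKM summed over the members of each role in the 4 libraries, with each bar divided by gene and axes from 0. Mcl1 makes up most of the prosurvival bar in pHes1_EPCs (63.4% at P1 and 60.8% at P4), the effector bar of P4 pHes1_EPC is the tallest at 78.4, and Bbc3 is a thin slice of the BH3-only bar in pHes1_EPCs.

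The order of the members differed between the libraries below the top. Bax, Mcl1 and Bcl2l1 held the top 3 places in all 4 libraries, and the lowest place went to Bcl2 in both EGFP-negative libraries and to Bbc3 in both EGFP-positive ones. In P1 pHes1_ENC the order was Bax, Mcl1, Bcl2l1, Casp9, Bcl2l11, Bak1, Bid, Bbc3 and Bcl2, where Bax and Mcl1 overlapped, and Bak1, Bid and Bbc3 overlapped with their neighbours. In P1 pHes1_EPC it was Mcl1, Bax, Bcl2l1, Bcl2l11, Bak1, Casp9, Bcl2, Bid and Bbc3, with every neighbour apart. In P4 pHes1_ENC it was Bcl2l1, Bax, Mcl1, Casp9, Bcl2l11, Bbc3, Bak1, Bid and Bcl2, where Bax overlapped with Mcl1 and Bbc3 with Bak1. In P4 pHes1_EPC it was Bax, Mcl1, Bcl2l1, Bcl2l11, Bak1, Casp9, Bid, Bcl2 and Bbc3, where Bax overlapped with Mcl1 and Bcl2l11 with Bak1. Casp9 was thus above Bcl2l11 and Bak1 in both EGFP-negative libraries and below both in the EGFP-positive ones.

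Between P1 and P4 the members moved less than they did between the fractions. In pHes1_ENCs no member was past 2-fold higher at P4, against 4.67% of all genes, and 1 member, Bid, was past 2-fold lower, against 10.02%. In pHes1_EPCs no member was past 2-fold higher, against 7.04%, and none was past 2-fold lower, against 4.33%. The intervals of the ages lay apart for 5 of 9 members in pHes1_ENCs, against 58.9% of all genes, and for 6 of 9 in pHes1_EPCs, against 66.2%. The median size of the difference was 0.20 over the members and 0.33 over all genes in pHes1_ENCs, and 0.22 and 0.39 in pHes1_EPCs. With the sign kept, both medians were -0.01 in pHes1_ENCs, and in pHes1_EPCs they were 0.21 over the members and 0.17 over all genes. The largest age difference was that of Bid in pHes1_ENCs, -1.23 (ratio 0.297, range 0.188 to 0.484), set against 0.64 in pHes1_EPCs. Bcl2 was lower at P4 in both fractions, by -0.87 in pHes1_ENCs and -0.50 in pHes1_EPCs on the log2(FPKM + 1) scale. The ratio for Bcl2 in pHes1_ENCs, 0.282 (range 0.195 to 0.399), was close to that of Bid, and the pseudocount kept its difference within 2-fold. Bcl2l1 was higher at P4 in both, by 0.63 and 0.49, as was Casp9, by 0.39 and 0.21, although the Casp9 difference in pHes1_EPCs turned to -0.10 when the libraries were rescaled to the same total. Bax was higher at P4 in pHes1_EPCs by 0.72 and differed by 0.11, with overlapping intervals, in pHes1_ENCs, where the same total gave -0.02. In pHes1_EPCs the same total lowered the difference of Bcl2l1 to 0.17 and that of Bax to 0.40. Quantile normalization lowered that of Bax to 0.44. Bak1, Bcl2l11 and Bbc3 had overlapping intervals between the ages in both fractions.

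The members whose log2(FPKM + 1) spanned more than 1 over the 4 libraries were Bcl2 (2.05), Bcl2l1 (1.54), Bak1 (1.501), Bbc3 (1.47) and Bid (1.33). For each, the 3 genes nearest in pattern were taken from 10462 genes that reached an FPKM of 5 in some library, by the root mean square distance on the log2 scale after centring each gene. Nearest to Bcl2 were Nfatc4 (0.029), Spred1 (0.058) and Arhgap18 (0.061), with 133 genes within 0.2. Nearest to Bcl2l1 were Gfpt1 (0.023), Tmcc3 (0.038) and Mtmr6 (0.039), with 248 genes within that distance, and nearest to Bak1 were Tmem123 (0.021), Eef1d (0.022) and Nkd1 (0.031), with 197. Nearest to Bbc3 were Ap3b2 (0.018), Shroom2 (0.054) and Slc24a3 (0.066), with 76. The pattern of Bid was the least common of the 5, with 28 genes within 0.2 and Dpysl2 (0.071), Tmem191c (0.099) and Lrrc4b (0.107) nearest. Likeness over 4 libraries is a loose measure, as these counts show.

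The other genes of the pathway were read from lists of 58 genes, of which 46 reached an FPKM of 1 in some library. At P1, 6 of the 46 were past 2-fold higher in pHes1_EPCs and 2 lower, against 10.3% and 11.5% of all genes, and at P4, 8 were higher and 2 lower, against 16.6% and 9.15%. The median difference over the 46 was 0.18 at P1 and 0.16 at P4, beside 0.02 and 0.15 over all genes. Higher at both ages were Birc5, Ngfr, E2f1 and Casp8, and lower at both was Bmf.

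**Figure D4:**
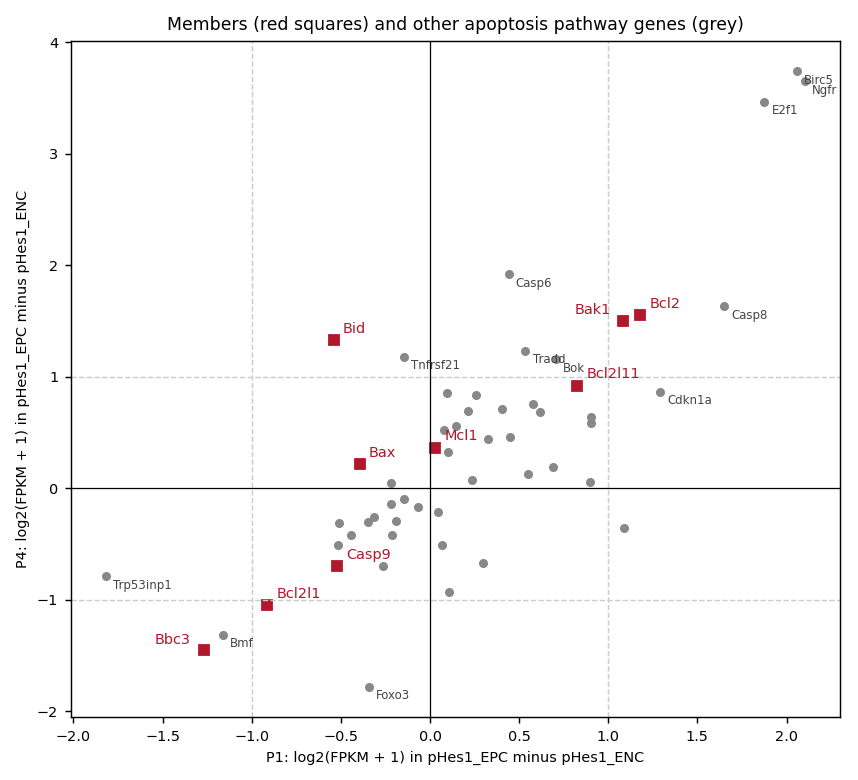
Difference of log2(FPKM + 1) between pHes1_EPC and pHes1_ENC at P1 (x axis) and at P4 (y axis) for the 9 members (red squares) and the 46 other pathway genes that reached an FPKM of 1 (grey circles), with dashed lines at 2-fold. Birc5, Ngfr and E2f1 lie farthest up and right, Bcl2 and Bak1 are past 2-fold at both ages on the higher side and Bbc3 and Bmf on the lower side, and Bid is the only member past 2-fold at P4 with the opposite sign at P1.

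Of the other Bcl2 relatives, Bok, an effector-like gene, was the one member of its list and had an FPKM of 5.44 in pHes1_ENC and 9.52 in pHes1_EPC at P1, then 3.07 and 8.08 at P4, with differences of 0.71 and 1.16. It thus stood on the side of Bak1. Of the 6 other prosurvival genes, Bcl2l2 alone reached an FPKM of 1 and was not past 2-fold, at -0.51 and -0.31, and the Bcl2a1 genes, near-identical copies that 36-base reads may not separate, were at or near 0. Of the 5 other BH3-only genes, 3 reached an FPKM of 1. Bmf, a BH3-only gene known for its response to detachment, had an FPKM of 2.26 in pHes1_ENC and 0.456 in pHes1_EPC at P1, against 4.14 and 1.07 at P4, lower in both EGFP-positive libraries as Bbc3 was. Its differences were -1.16 and -1.31. Bik was past 2-fold higher at P1, by 1.09, at an FPKM of 1.96 or less, and is named after its value was seen.

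The list of mitochondrial genes, which covers voltage-dependent channels, cytochrome c and other proteins released with it, had none of 9 past 2-fold at either age, with differences from -0.19 to 0.45 at P1 and from -0.30 to 0.84 at P4. With 10.3% of all genes higher and 11.5% lower at P1, and 16.6% and 9.15% at P4, a list of this size would hold few such genes in any case. Of 7 genes for the apoptosome, caspases and their targets, none was past 2-fold at P1 and 1 was higher at P4. Casp6, an executioner caspase, differed by 0.44 at P1 and by 1.92 at P4, where its FPKM was 7.34 in pHes1_ENC and 30.5 in pHes1_EPC.

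In the inhibitor of apoptosis list, 4 of 5 genes reached an FPKM of 1 and Birc5 alone was past 2-fold. Birc5 encodes survivin, which also serves in chromosome segregation during mitosis, and had an FPKM of 24.1 in pHes1_ENC and 103.6 in pHes1_EPC at P1, against 2.96 and 51.8 at P4. E2f1, a regulator of S phase genes that can also drive BH3-only genes, had 27.4, 103.2, 5.60 and 72.0 in the same order. Both ordered the libraries as did the sum of 6 cycling markers, which was 209.5 in pHes1_ENC and 944 in pHes1_EPC at P1, then 62.0 and 373 at P4, with 6 of 6 past 2-fold higher in pHes1_EPCs at both ages. Bcl2 had this order too, while Bak1 was highest in P4 pHes1_EPC, and the part of cycling cells in the levels of these genes was not tested. Foxo3, the other gene of the 5 BH3-only regulators past 2-fold, was lower in pHes1_EPCs at P4, at 9.87 against 36.3, a difference of -1.78, and differed by -0.34 at P1.

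Of 11 death receptor genes, 8 reached an FPKM of 1, and 2 were past 2-fold higher in pHes1_EPCs for P1 and 4 for P4, with none lower, where the shares over all genes were 10.3% and 16.6% higher and 11.5% and 9.15% lower. Ngfr, the p75 neurotrophin receptor, had an FPKM of 9.59 in pHes1_ENC and 44.5 in pHes1_EPC at P1, against 3.11 and 50.6 at P4. Casp8, the caspase that cuts BID, had 0.726, 4.42, 0.198 and 2.72 in the same order, so that both genes were higher in both EGFP-positive libraries while Bid was so at P4 alone. The receptor Tnfrsf21 differed by -0.15 at P1 and 1.18 at P4, the same change of sign as Bid, although its P1 intervals overlapped, and the adaptor Tradd differed by 0.53 and 1.23. Of 9 genes of the p53 list, 8 reached an FPKM of 1, with 1 higher and 1 lower at P1 and none at P4. Cdkn1a, the p53 target that halts the cell cycle, differed by 1.29 at P1 and 0.87 at P4, and Trp53inp1 by -1.82 and -0.79. Bbc3, a target of the same factor, was lower in pHes1_EPCs as Trp53inp1 was.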

How the data were processed

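RNA of sorted retinal cells was measured in 4 libraries by single-end sequencing of 36 bases. The authors aligned the reads to NCBI37/mm9, allowing up to 50 positions per read, and deposited gene FPKM with a 95% interval for each library. The submitters' processing notes name bcl2fastq 1.8.4, TopHat2 2.0.8b and Cufflinks 2.1.1. Reads and read counts were not used here, so the precision of a value is read from its interval, whose half-width was 3.74% to 32.4% of the FPKM over the members and which covers counting error only.

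Values were computed with Python 3.11.15, numpy 2.4.6, pandas 2.3.3 and scipy 1.17.1, and plotted with matplotlib 3.10.9. Of 23021 gene lines, 797 small RNA lines were left out, and of 234 symbols with several lines the highest was kept; each member had 1 line with status OK. Libraries were grouped by the labels' fraction and age. The difference used log2(FPKM + 1), with no test, and ranges divide the ends of the intervals; those of summed ratios combine the half-widths as root sums of squares. The members, the pathway and marker lists and the rule for named genes were chosen with earlier results of these data known. Named were all members, pathway genes past 2-fold at either age with an FPKM of at least 2 (up to 30) and the 3 nearest genes of members spanning over 1. Alternatives changed the pseudocount, the scaling, the choice among lines, the status filter, the filter on low values and the genes summed. Scripts were tested on simulated data. Motifs were searched on both strands of NCBI37 with GENCODE vM1 strands. A gene of the pathway lists was left out and is not reported here.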

Additional observations from a re-analysis of the deposited data

Results flagged for a closer look

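Bid was marked because its difference between the fractions had opposite signs at the 2 ages, with intervals apart at each: -0.54 at P1 and 1.33 at P4 in log2(FPKM + 1), a change of 1.87 from the former to the latter. With 1 library in each group the change itself was not tested. It is made up of a lower level at P4 in pHes1_ENCs (4.46 to 1.33 FPKM) and a higher one in pHes1_EPCs (2.75 to 4.83 FPKM). Of the 8 alternatives, those that changed the pseudocount, summed lines or filtered on status could not change a sign for Bid. Both signs stayed as they were under the others, which rescaled the libraries or took interval midpoints.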

How the results depend on the processing

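No paired analysis was possible because each group had 1 library and the labels carry no replicate numbers. Leaving out a library would leave its comparisons without a value. Of 288 member differences recomputed under the alternatives, 45 left the range of their intervals, 19 changed sign, all of them within 2-fold, and none past 2-fold reversed. Part of the 288 was fixed in advance. Summing lines and the status filter could not move a member, since each had 1 line with status OK. A change of pseudocount cannot change a sign. The members past 2-fold lower at P4 in pHes1_ENCs numbered 2 with a pseudocount of 0.1, 2 without a pseudocount, 2 with libraries rescaled to the same total (which also makes values larger against the pseudocount) and 0 after quantile normalization, where Bid was at -0.91. The members lower in pHes1_EPCs at P1 numbered 2 with the same total and 2 after quantile normalization, where Bcl2l1 joined Bbc3 at -1.02 both times. At P4 the members lower in pHes1_EPCs numbered 3 with the same total, where Casp9 joined Bcl2l1 and Bbc3 at -1.02. Pathway genes lower at P4 numbered 5 with the same total, those lower at P1 numbered 1 after quantile normalization, and those higher at P4 numbered 5 after it. Over all genes, those lower in pHes1_EPCs at P4 numbered 1184 as deposited and 2067 with the same total. At P1 they numbered 1483 as deposited, 1963 with the same total and 1429 after quantile normalization. Those higher in pHes1_EPCs at P4 numbered 2150 as deposited and 1541 after quantile normalization. Genes lower at P4 in pHes1_ENCs numbered 1297 as deposited, 2013 with the same total and 1011 after quantile normalization. The effector to prosurvival ratio with interval midpoints, an alternative chosen after seeing the data, was 0.533, 0.587, 0.472 and 0.757 in P1 pHes1_ENC, P1 pHes1_EPC, P4 pHes1_ENC and P4 pHes1_EPC. It was 0.494 in P4 pHes1_ENC with Bcl2l2 and Bok added, and 1.27, 1.84, 0.891 and 2.24 in the same order without Mcl1. Mcl1 is 51.1%, 63.4%, 38.5% and 60.8% of the prosurvival sum in that order, so leaving it out raises the ratio by construction. The midpoints lie below the FPKM of Bax in every library. The cause of the other changes was not tested. With no filter on low values, the shares of all genes past 2-fold in pHes1_EPCs were 6.10% higher and 6.79% lower at P1 and 9.85% and 5.42% at P4, and between the ages 2.77% and 5.94% in pHes1_ENCs and 4.17% and 2.57% in pHes1_EPCs, since genes near 0 enter the denominator. Rescaling to the same total moved the median of all genes by -0.25 between the fractions at P4, by -0.29 between the ages in pHes1_EPCs and by -0.13 between the ages in pHes1_ENCs. Of all genes past 2-fold at P4, 64.5% were higher in pHes1_EPCs as deposited, 48.1% with the same total, 53.1% with median-of-ratios scaling and 49.9% after quantile normalization. Of those between the ages in pHes1_EPCs, 61.9% were higher at P4 as deposited and 33.7%, 44.1% and 44.3% in the same order. In pHes1_ENCs the share was 31.8% as deposited and 23.7%, 32.6% and 42.6% in that order.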

Other observations

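The pathway genes outside the 9 members were also compared between the ages. In pHes1_ENCs, 2 of 46 were past 2-fold higher at P4 and 4 lower, and in pHes1_EPCs 1 was higher and 1 lower. Over all genes the shares were 4.67% higher and 10.02% lower in pHes1_ENCs, and 7.04% and 4.33% in pHes1_EPCs. The counts in pHes1_ENCs are near these shares and those in pHes1_EPCs below them, and the genes are given by value alone. Lower in P4 pHes1_ENC were Birc5 (24.1 to 2.96 FPKM), E2f1 (27.4 to 5.60), Ngfr (9.59 to 3.11) and Tnfrsf21 (6.84 to 2.28), with differences of -2.67, -2.10, -1.36 and -1.25. Higher in P4 pHes1_ENC were Jun (41.6 to 86.5) and Ddit3 (17.6 to 36.6), stress-responsive transcription factors that can drive BH3-only genes, by 1.04 and 1.02. In pHes1_EPCs, Trp53inp1 was higher at P4 by 1.03 and Mdm4, a repressor of p53, lower by -1.26 (33.4 to 13.4 FPKM). Jun, Ddit3 and Mdm4 are named after their values were seen. Among the members, Bid alone passed 2-fold between the ages on the log2(FPKM + 1) scale as deposited, in pHes1_ENCs. The P4 to P1 ratio of Bcl2 there was as low, at 0.282 against 0.297 for Bid. After quantile normalization Bid was within 2-fold, at -0.91.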
